A study of Rhinolophus ferrumequinum with 8 samples.

Results

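Immediate early response genes were followed in spleens of greater horseshoe bats (Rhinolophus ferrumequinum) that were in torpor, 2 h and 26 h after capture from the hibernation season, or active in summer. The 31 genes were taken by gene name from a table of 19652 genes, and all 31 names were present. They comprise FOS/JUN genes (FOS, FOSB, FOSL1, JUN, JUNB and JUND), EGR1 to EGR3, NR4A1 to NR4A3, KLF2, KLF4 and KLF6, DUSP1, DUSP2 and DUSP5, the other transcription factors ATF3, MYC, MAFF and CSRNP1, and IER2, IER3, IER5, ZFP36, BTG2, CCN1, SIK1, RGS1 and RGS2. RNA of whole spleens from wild females was sequenced in 8 libraries, 2 biological replicates in each of 4 states. The torpor, arousal (2 h) and winter active (26 h) bats were sampled in November and the summer active bats in July. Each state came from its own animals, so time after capture was not followed within a bat, and season and month of sampling cannot be told apart. Rewarming and handling run together after capture and cannot be told apart either, since no state is labelled as captured and kept cold. The labels give no time after capture for the torpor and summer active bats. The term libraries taken after capture is used here for those at 2 h and 26 h.

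Immediate early genes are switched on by incoming signals through proteins already present in the cell, without new protein synthesis. Their messages are usually short-lived. Growth factors, antigen receptors, stress and cyclic AMP reach them through the ERK, stress kinase and CREB pathways, largely by way of serum response factor and its partners. Many of the products are transcription factors, while others, such as the DUSP phosphatases, ZFP36 and SIK1, damp the signal that induced them. In spleen they are best known as marks of recently stimulated lymphocytes and macrophages.

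Levels are rescaled TPM, a deposited abundance unit that accounts for transcript length, so levels of different genes can be compared. Every difference is one of log2(rescaled TPM + 1), where the added 1 makes differences of weakly expressed genes too small. Tests used limma, with p-values adjusted over the 13542 genes whose 8-library mean reached 1. Of the 31 genes, 29 did, and NR4A2 and NR4A3 did not (means of 0.382 and 0.924). Sequencing depth is unknown, since no counts were given, and p-values reflect the spread between only 2 animals per state. Spleen identity was visible in every library, with summed macrophage markers between 4738 and 20209 and summed B-cell markers between 602 and 3153. Transcripts of neighbouring organs also varied, with summed hepatocyte markers (9 of 12 in the table) at 18728 in arousal 2 and between 49.1 and 2523 elsewhere. Summed squamous and gastric markers (6 of 10 in the table) stood at 1856 in winter active 2 and 1620 in summer active 2. Elsewhere they lay between 1.89 and 138, with some of them at 0 in most libraries. In summer active 2 the sum was nearly all KRT4 (1617). The part of such tissue in the member values was not tested.

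At 2 h no immediate early gene passed the threshold against torpor, where 0% of all genes tested did, but several lay higher in both arousal libraries. BTG2, MAFF, DUSP1, KLF6, JUN and MYC were the members with an unadjusted p under 0.05, all higher at 2 h. That was 6 of 29 (20.7%), beside 12.8% of all genes tested in that direction, and no member had such a p on the lower side, beside 6.88% of all genes. Both arousal libraries lay above both torpor libraries for 13 of 29 members (44.8%), beside 31.9% of all genes, and below for none, beside 22.2%. The median difference of the 29 was 0.35, against 0.11 over all genes tested. The 2 libraries of each state weighed on that median, which was 0.59 without torpor 1, 0.18 without torpor 2, 0.16 without arousal 1 and 0.57 without arousal 2. In whole spleen, more RNA per cell and more cells of a type cannot be told apart.

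At 26 h the shift from torpor was similar in size and again no member passed, where 0% of all genes did. Both comparisons share the same torpor libraries, so the result at 26 h is no independent repeat of that at 2 h. BTG2, MYC, DUSP1, DUSP2, EGR1, EGR2 and CSRNP1 had an unadjusted p under 0.05, all higher, which was 7 of 29 (24.1%) beside 9.09% of all genes, and none was lower, beside 4.11%. Both winter active libraries lay above both torpor libraries for 16 of 29 members (55.2%), beside 29.6% of all genes. They lay below for FOS alone (3.45%, beside 21.3%). The median difference was 0.44, against 0.08 over all genes. All 4 libraries taken after capture lay above both torpor libraries for 11 of 29 members (37.9%), beside 20.1% of all genes, and below for none, beside 12.5%. These 11 were FOSL1, JUN, EGR1, EGR2, KLF6, DUSP1, MYC, MAFF, CSRNP1, BTG2 and SIK1, so FOS/JUN, EGR, KLF and DUSP genes were among them. NR4A1 was not, while NR4A2 and NR4A3, too low to be tested, also had all 4 values after capture above both torpor values. In the F test for any difference among the 4 states no member passed, beside 0.783% of all genes. The smallest limma adjusted p-values were 0.0880 for MAFF and 0.0915 for BTG2.

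**Figure D1:**
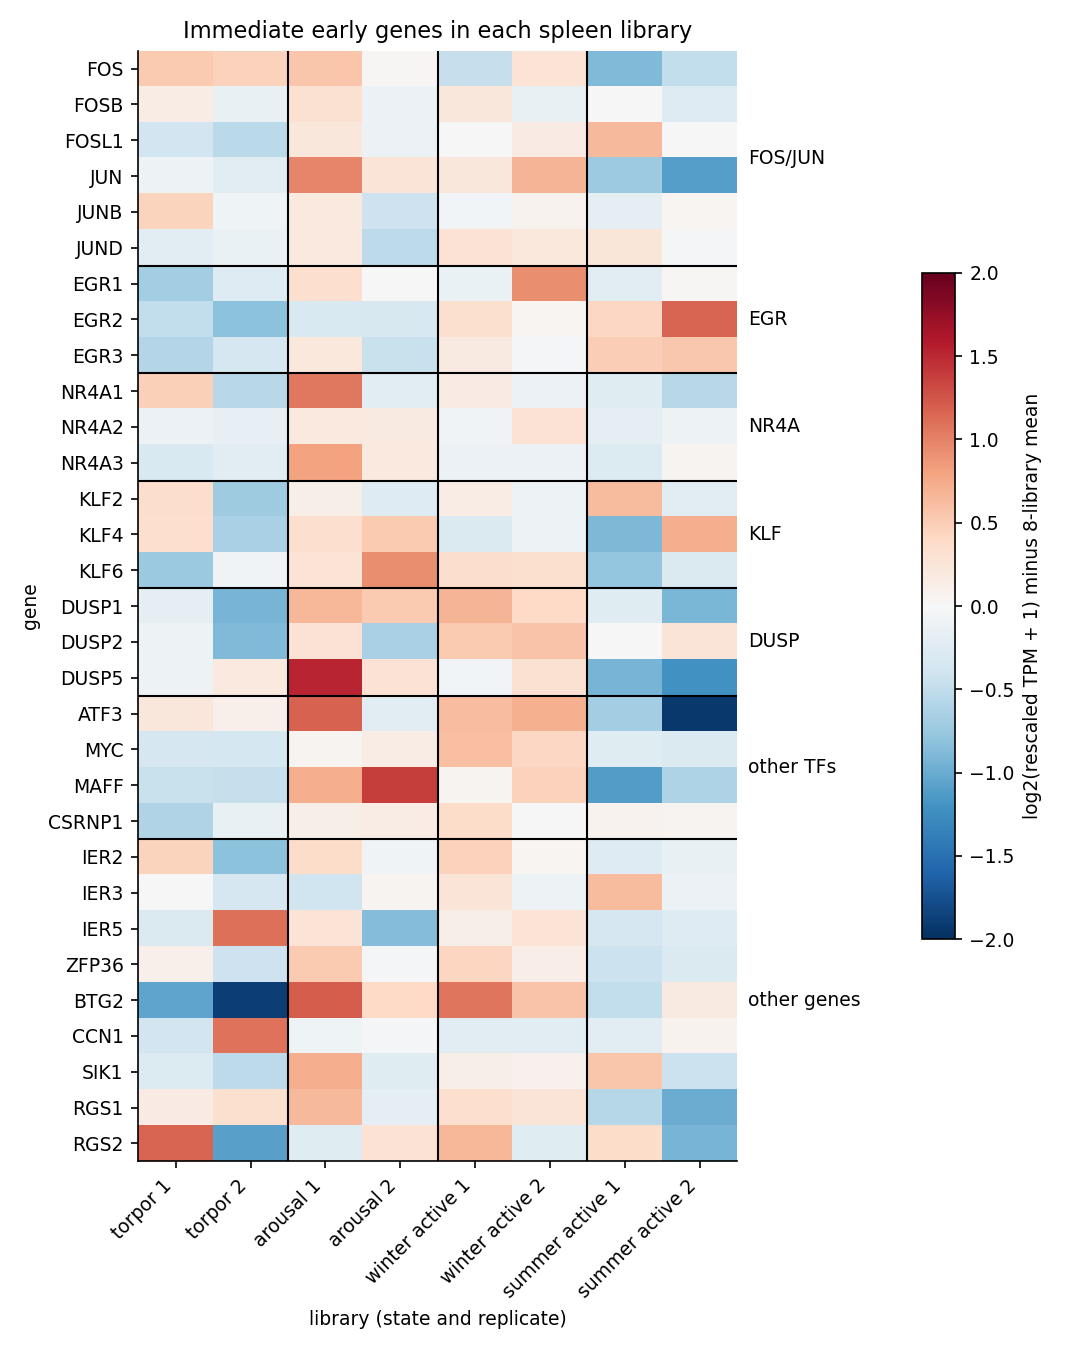
Heat map of the 31 genes (rows, grouped by subfamily) in the 8 libraries (columns), with colour giving log2(rescaled TPM + 1) minus the gene's 8-library mean, red above and blue below. BTG2 is blue in both torpor libraries and red in all 4 libraries taken after capture, while FOS is red in torpor 1 and torpor 2 and blue in both summer active libraries.

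Of the FOS/JUN genes, which encode the subunits of the AP-1 transcription factor, JUN was the gene with an unadjusted p under 0.05 against torpor, and that at 2 h. JUN (NCBI gene 117027175) had 22.6 and 20.6 in torpor, 48.6 and 29.0 at 2 h, 28.5 and 39.4 at 26 h, and 14.2 and 10.7 in summer active spleens. All 4 values after capture exceeded both torpor values, and both torpor values exceeded both summer values. The difference of arousal from torpor was 0.77 (SE 0.30, unadjusted p = 0.0352, limma adjusted p = 0.224).

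FOS, the classic partner of JUN in AP-1, was low throughout and did not lie higher after capture. FOS had 5.20 and 4.99 in torpor, 5.37 and 3.38 at 2 h, 2.15 and 4.21 at 26 h, and 1.36 and 2.10 in summer active spleens. The arousal and torpor values overlapped, both winter active values lay below both torpor values, and all 6 November values exceeded both summer values. The 95% interval of the difference of arousal from torpor ran from -1.02 to 0.60.

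The other FOS/JUN genes had no unadjusted p under 0.05 against torpor. FOSB, a FOS paralog, had 1.38 and 0.917 in torpor, 1.63 and 0.976 at 2 h, 1.51 and 0.919 at 26 h, and 1.12 and 0.781 in summer active spleens. FOSL1, which encodes FRA1, had 1.02 and 0.821 in torpor, 2.09 and 1.44 at 2 h, 1.67 and 1.98 at 26 h, and 3.15 and 1.62 in summer active spleens. FOSB overlapped between all 4 states, whereas FOSL1 was lowest in the 2 torpor libraries. JUNB, which can oppose JUN, was the most abundant of these 6 genes at 69.9 and 48.3 in torpor, 58.9 and 38.3 at 2 h, 49.1 and 53.5 at 26 h, and 44.6 and 52.6 in summer active spleens. JUND, the JUN paralog that is usually expressed without stimulation, had 7.19 and 7.81 in torpor, 10.001 and 5.67 at 2 h, 10.8 and 10.1 at 26 h, and 10.4 and 8.36 in summer active spleens. JUNB overlapped between all 4 states, and JUND was higher in both winter active libraries than in torpor or arousal.

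The 3 EGR genes, zinc finger transcription factors induced through ERK and serum response factor, were at their lowest mean in torpor. EGR1 (NCBI gene 117016939) had 7.41 and 10.4 in torpor, 16.2 and 12.6 at 2 h, 11.4 and 24.9 at 26 h, and 10.7 and 12.8 in summer active spleens. EGR2, a regulator of lymphocyte tolerance in mice, had 0.593 and 0.273 in torpor, 0.815 and 0.795 at 2 h, 1.80 and 1.31 at 26 h, and 2.00 and 4.02 in summer active spleens. EGR3, which acts with EGR2 in T cells of mice, had 0.932 and 1.30 in torpor, 2.36 and 1.14 at 2 h, 2.28 and 1.82 at 26 h, and 3.08 and 3.22 in summer active spleens. For all 3 genes both torpor values lay below both winter active values and both summer values, and for EGR1 and EGR2 also below both arousal values. EGR2 and EGR3 stayed below both summer values in all 4 libraries taken after capture. The difference of winter active from torpor was 0.87 for EGR1 (SE 0.37, unadjusted p = 0.0497, limma adjusted p = 0.378). For EGR2 it was 0.84 (SE 0.34, unadjusted p = 0.0439, limma adjusted p = 0.372). EGR1 rested on winter active 2, since its difference was 0.34 without that library and 1.41 without winter active 1.

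The NR4A genes, nuclear receptors that act without a known hormone and mark antigen receptor signalling in lymphocytes, did not pass in either comparison with torpor. NR4A1 (also known as Nur77) had 15.2 and 6.95 in torpor, 23.3 and 8.98 at 2 h, 12.2 and 9.82 at 26 h, and 8.92 and 6.95 in summer active spleens. Replicate 1 was the higher library in every state, and torpor overlapped both states after capture. NR4A2 had 0.263 and 0.219 in torpor, 0.569 and 0.553 at 2 h, 0.304 and 0.675 at 26 h, and 0.202 and 0.274 in summer active spleens. NR4A3 had 0.503 and 0.593 in torpor, 2.26 and 1.13 at 2 h, 0.712 and 0.714 at 26 h, and 0.542 and 0.946 in summer active spleens. Both arousal values of NR4A3 exceeded the 6 other values, and both arousal values of NR4A2 exceeded those of torpor and summer. With no filter on low values, the difference of arousal from torpor was 0.77 for NR4A3 (SE 0.23, unadjusted p = 0.0143, limma adjusted p = 0.225). For NR4A2 it was 0.33 (SE 0.13, unadjusted p = 0.0386, limma adjusted p = 0.283).

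Of the KLF genes, KLF6 lay above torpor at both times after capture, KLF4 at 2 h by a small margin, and KLF2 at neither. KLF6 (NCBI gene 117019936), a zinc finger factor of stressed and activated myeloid cells, had 20.6 and 33.4 in torpor, 42.9 and 68.4 at 2 h, 45.2 and 44.4 at 26 h, and 20.3 and 28.7 in summer active spleens. All 4 values after capture exceeded the 4 values of torpor and summer. The difference of arousal from torpor was 1.02 (SE 0.32, unadjusted p = 0.0151, limma adjusted p = 0.182). KLF2, which maintains lymphocyte quiescence and endothelial function, had 118 and 56.0 in torpor, 99.9 and 76.6 at 2 h, 102 and 85.8 at 26 h, and 144 and 79.5 in summer active spleens. KLF4, a factor of monocytes and epithelia, had 26.2 and 12.8 in torpor, 26.3 and 30.0 at 2 h, 16.6 and 19.1 at 26 h, and 10.5 and 34.5 in summer active spleens. KLF2 values of torpor spanned those of arousal and winter active, and the arousal values of KLF4 lay above both torpor values while its winter active values lay between them.

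The DUSP genes encode phosphatases that switch off MAP kinases, and DUSP1 lay higher than torpor at both times after capture. DUSP1 (NCBI gene 117016981), a nuclear phosphatase of p38 and JNK that glucocorticoids also induce, had 73.8 and 43.2 in torpor, 133 and 121 at 2 h, 134 and 111 at 26 h, and 70.2 and 43.8 in summer active spleens. The 4 values after capture all exceeded the 4 values of torpor and summer. The difference from torpor was 1.15 at 2 h (SE 0.32, unadjusted p = 0.00795, limma adjusted p = 0.171) and 1.10 at 26 h (SE 0.32, unadjusted p = 0.0100, limma adjusted p = 0.293). DUSP5 (NCBI gene 117036407), a nuclear phosphatase of ERK, had 44.9 and 55.3 in torpor, 141 and 59.0 at 2 h, 46.2 and 59.4 at 26 h, and 24.7 and 20.2 in summer active spleens. Its high value at 2 h was that of arousal 1 alone, and all 6 November values exceeded both summer values. DUSP2, a phosphatase of activated immune cells, had 21.1 and 11.8 in torpor, 28.1 and 14.1 at 2 h, 33.3 and 34.1 at 26 h, and 22.8 and 27.2 in summer active spleens. Both winter active values of DUSP2 exceeded the 6 others, while its arousal values overlapped torpor. The difference of winter active from torpor was 1.04 for DUSP2 (SE 0.37, unadjusted p = 0.0249, limma adjusted p = 0.329).

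**Figure D2:**
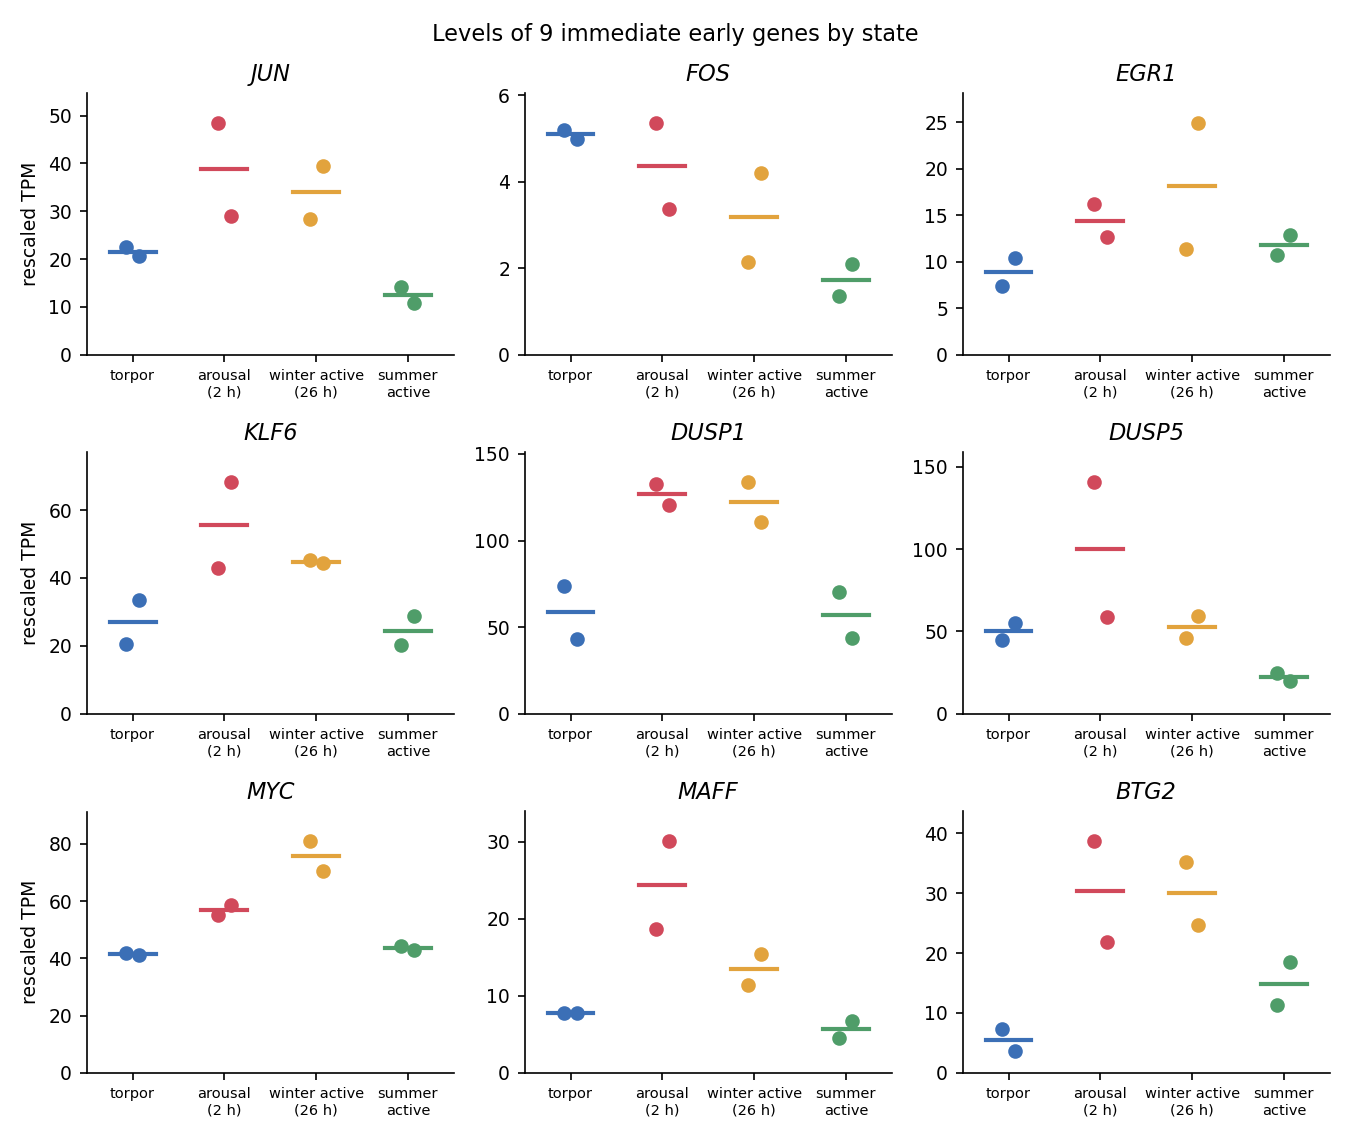
Rescaled TPM of 9 genes in each library (points, 2 per state) with the state mean (bar), every axis starting at 0 and each with its own scale. DUSP1, KLF6 and BTG2 lie higher in all 4 libraries taken after capture than in torpor, MAFF and DUSP5 have their highest mean at 2 h, MYC and EGR1 have theirs at 26 h, and FOS does not lie higher after capture than in torpor.

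Among the other transcription factors, MAFF, MYC and CSRNP1 lay above torpor at both times after capture. MAFF (NCBI gene 117029336), a small MAF protein of the stress response, had 7.76 and 7.71 in torpor, 18.7 and 30.1 at 2 h, 11.4 and 15.4 at 26 h, and 4.52 and 6.78 in summer active spleens. The states did not overlap, with arousal above winter active, winter active above torpor and torpor above summer active. The difference of arousal from torpor was 1.50 (SE 0.31, unadjusted p = 0.00157, limma adjusted p = 0.142). MYC (NCBI gene 117034063), a driver of cell growth, had 41.8 and 41.2 in torpor, 55.1 and 58.6 at 2 h, 81.2 and 70.5 at 26 h, and 44.4 and 43.0 in summer active spleens. MYC values thus stood in the order torpor, arousal, winter active with no overlap, and its replicates were close in torpor, arousal and summer. The difference of winter active from torpor was 0.85 for MYC (SE 0.17, unadjusted p = 0.00134, limma adjusted p = 0.271).

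CSRNP1, a nuclear protein induced by AXIN1 in human cells, had 10.7 and 15.009 in torpor, 18.3 and 18.6 at 2 h, 21.8 and 16.9 at 26 h, and 17.6 and 17.4 in summer active spleens. Its 2 torpor values were below the 6 others, with a difference of winter active from torpor of 0.56 (SE 0.23, unadjusted p = 0.0463, limma adjusted p = 0.377). ATF3, a stress-induced repressor that had no unadjusted p under 0.05 against torpor, ranged in November from 6.57 in arousal 2 to 18.9 in arousal 1. Its arousal values overlapped torpor (9.27 and 8.48), while both winter active values (12.5 and 13.4) lay above both torpor values. Against summer active, where ATF3 stood at 4.43 and 1.32, all 6 November values were higher.

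BTG2 (NCBI gene 117015396), an antiproliferative gene and p53 target, had the largest difference from torpor of the members at both times. It had 7.29 and 3.69 in torpor, 38.8 and 21.8 at 2 h, 35.3 and 24.8 at 26 h, and 11.3 and 18.4 in summer active spleens. Torpor values lay below all 6 others and the 4 values after capture above all others. BTG2 averaged 30.3 ± 12.03 at 2 h against 5.49 ± 2.55 in torpor (SD, n = 2 each), a difference of 2.27 (SE 0.41, unadjusted p = 0.000778, limma adjusted p = 0.142). At 26 h it averaged 30.0 ± 7.46, a difference from torpor of 2.30 (SE 0.41, unadjusted p = 0.000736, limma adjusted p = 0.271). By unadjusted p, BTG2 ranked at 63 of 13542 genes at 2 h and at 31 at 26 h.

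The remaining 8 genes had no unadjusted p under 0.05 against torpor at either time. ZFP36, which destabilises inflammatory messages, averaged 37.3 ± 9.63 in torpor, 49.7 ± 13.6 at 2 h and 50.6 ± 7.71 at 26 h (SD, n = 2 each). SIK1, a kinase that restrains CREB co-activators, averaged 30.3 ± 3.75 in torpor, 50.4 ± 23.4 at 2 h and 42.9 ± 0.641 at 26 h (SD, n = 2 each). Both winter active values of ZFP36 lay above both torpor values, and so did all 4 values of SIK1 after capture. IER2 and IER3 overlapped torpor at 2 h and at 26 h. RGS1, a brake on chemokine receptor signalling in B and T cells, was the most abundant member with an 8-library mean of 181. It did not separate the November states, but its values there, between 151 and 269, all exceeded the 115 and 85.7 of summer active spleens.

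Single torpor libraries set 3 of the remaining genes apart. RGS2, a regulator of G protein signalling, had 173 in torpor 1 and 35.5 in torpor 2. IER5, a heat shock factor regulator, had 25.03 in torpor 1 and 67.1 in torpor 2. CCN1, a secreted matrix protein, had 5.76 in torpor 1 and 17.8 in torpor 2, against 6.57 to 8.31 in the 6 other libraries. Torpor 1 also held the highest summed neutrophil markers (9 of 10 in the table), 12677 against 1597 in torpor 2 and 1022 to 3660 in the other 6, with no listed marker at 0 in torpor 1 or torpor 2. The part of neutrophil content in the RGS2 gap was not tested.

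**Figure D3:**
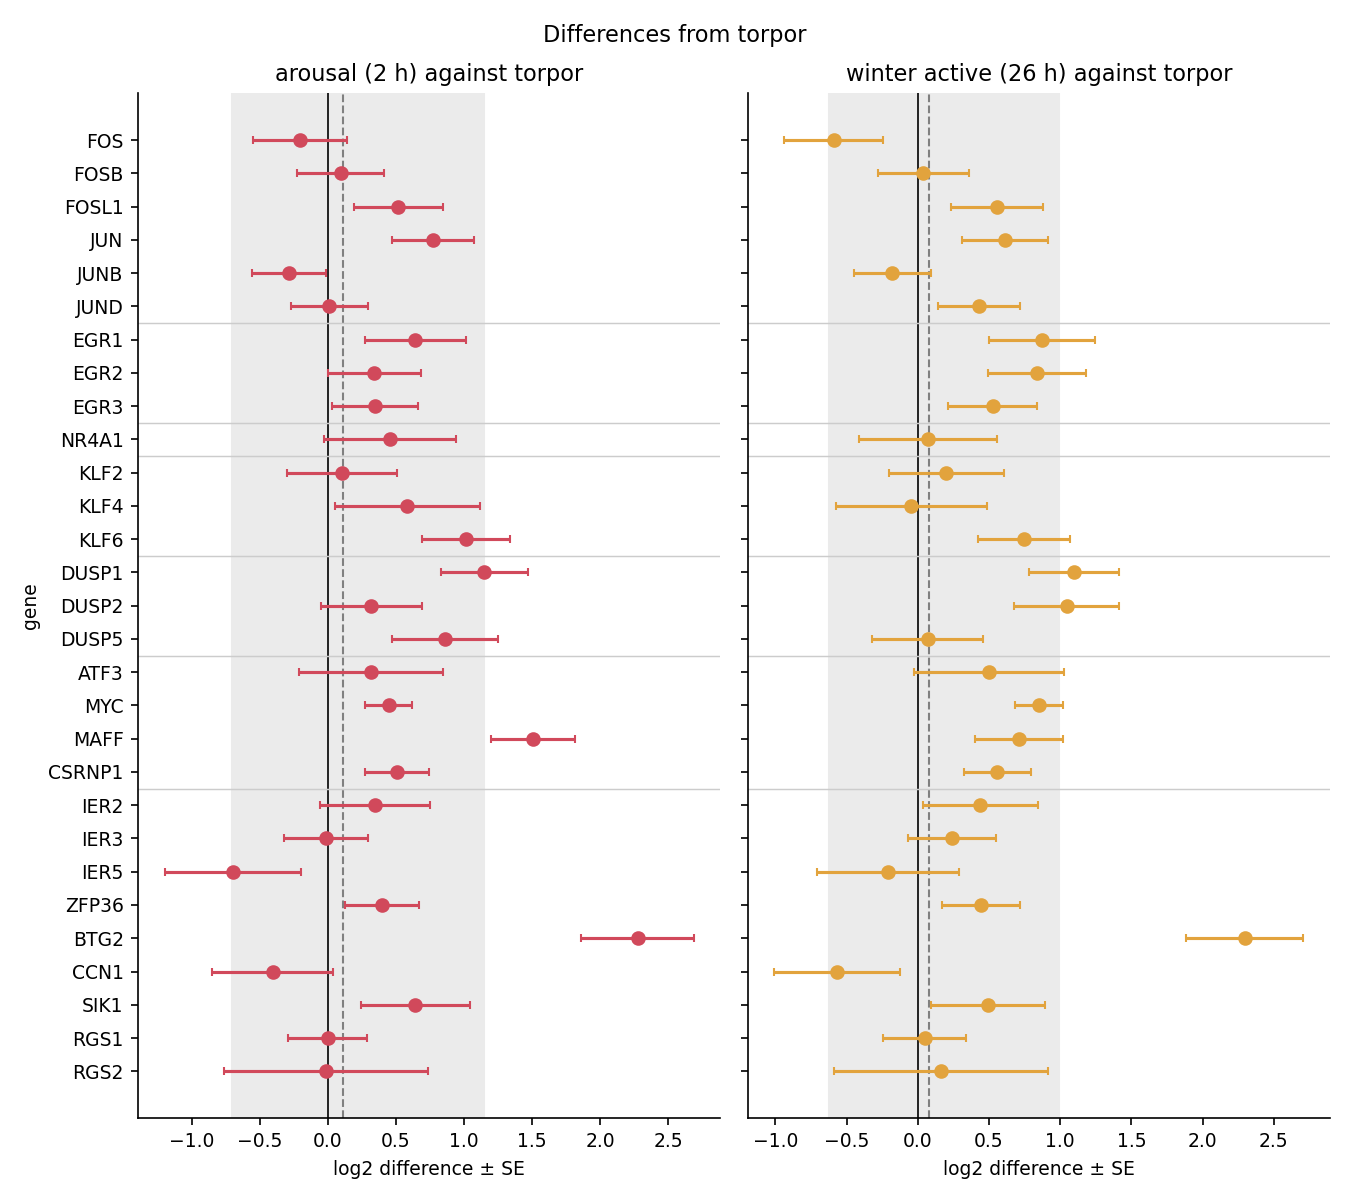
Log2 difference from torpor (point) ± SE (bar) of the 29 members tested, at 2 h (left) and 26 h (right), with the middle 90% of all 13542 genes in grey and their median as a dashed line. BTG2 lies outside the grey band at both times, DUSP1 lies at its upper edge at 2 h and outside it at 26 h, MAFF lies outside it at 2 h and DUSP2 at 26 h, and FOS lies left of 0 at both.

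Winter active against arousal asks what differed between 26 h and 2 h. No member passed, where 0% of all genes tested did, and the median difference was 0.05, against -0.04 over all genes. It was 0.29 without arousal 1 and -0.14 without arousal 2. MYC was higher at 26 h (difference 0.41, SE 0.17, unadjusted p = 0.0462) and MAFF lower (difference -0.79, SE 0.31, unadjusted p = 0.0351), each with a limma adjusted p of 0.825. That was 1 member on each side (3.45%), beside 3.08% of all genes higher and 2.37% lower. Both winter active libraries lay above both arousal libraries for JUND, EGR2, DUSP2 and MYC (13.8% of 29, beside 18.1% of all genes). They lay below for KLF4, MAFF and CCN1 (10.3%, beside 21.3%).

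Against summer active spleens, 3 members passed, all at 2 h. DUSP5, JUN and MAFF rose in arousal, which was 3 of 29 (10.3%) beside 5.52% of all genes in either direction, 2.39% on the higher and 3.14% on the lower side. MAFF averaged 24.4 ± 8.09 in arousal against 5.65 ± 1.60 in summer active spleens, a difference of 1.92 (SE 0.31, limma adjusted p = 0.0244, SD with n = 2 each). DUSP5 had 141 and 59.0 in arousal against 24.7 and 20.2 in summer active spleens, a difference of 1.98 (SE 0.39, limma adjusted p = 0.0394). JUN averaged 38.8 ± 13.8 in arousal against 12.5 ± 2.46 in summer active spleens, a difference of 1.53 (SE 0.30, limma adjusted p = 0.0394, SD with n = 2 each). Between the same libraries all 9 erythroid markers passed and were lower in arousal (summed 6.65 and 8.76 in arousal against 5802 and 8765 in summer active spleens, with HBM at 0 in arousal 1). All 10 B-cell markers lay lower too and 5 of them passed (summed 884 and 602 in arousal against 2500 and 3153 in summer active spleens). The part of these cells in the 3 calls was not tested. The calls depended on the fit, since none of the 3 passed with no filter, in a fit of the 2 states alone, or without summer active 1, summer active 2, arousal 1, winter active 1 or winter active 2. MAFF alone passed without either torpor library, and DUSP5 alone without arousal 2. With a replicate block DUSP1 and KLF6 passed too, 5 members in all. With each column set to a total of 1000000, 13 members passed and all were higher, while the median of all genes stood at 0.76 in place of 0.08. Without the threshold, both arousal libraries lay above both summer libraries for 14 of 29 members (48.3%, beside 32.0% of all genes) and below for EGR2 and EGR3 (6.9%, beside 25.3%). At an unadjusted p under 0.05, 8 members were higher (beside 15.7% of all genes) and EGR2 was lower (beside 13.2%).

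The comparisons of torpor and of winter active with summer active share the summer libraries with the one above, so they are given side by side. In torpor against summer active no member passed, beside 0.561% of all genes (0.0738% higher and 0.487% lower). FOS, JUN, DUSP5, ATF3 and RGS1 were higher in torpor at an unadjusted p under 0.05 (17.2%, beside 6.28% of all genes). FOSL1, EGR2, EGR3 and BTG2 were lower (13.8%, beside 9.71%). Both torpor libraries lay above both summer libraries for 6 of 29 (20.7%, beside 20.4%) and below for 9 (beside 26.0%), so neither share was far from that of all genes. The largest of these were 1.48 for ATF3 (SE 0.53, limma adjusted p = 0.245) and -1.45 for EGR2 (SE 0.34, limma adjusted p = 0.132). EGR2 passed without summer active 1 (difference -1.82, limma adjusted p = 0.0489). In winter active against summer active no member passed either, beside 1.03% of all genes (0.140% higher and 0.894% lower). JUN, KLF6, DUSP1, DUSP5, ATF3, MYC, MAFF, ZFP36, BTG2 and RGS1 were higher at an unadjusted p under 0.05 (34.5%, beside 7.88% of all genes), and none was lower (beside 6.96%). Both winter active libraries lay above both summer libraries for 15 of 29 (51.7%, beside 27.2%) and below for 2 (6.9%, beside 21.9%).

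Genes of the surrounding pathways were read from lists of kinases, partners and paralogs. Against torpor none of the genes on these lists passed at 2 h or 26 h. Genes were picked by p at each time, so a gene named at 1 time may also differ at the other. Of all genes tested, 58.0% had a difference above 0 at 2 h (median 0.11) and 56.7% at 26 h (median 0.08). Of 25 tested paralogs of the members, 22 had a difference above 0 at 2 h (median 0.82) and 21 at 26 h (median 0.59). ZFP36L1, a paralog of ZFP36 that restrains lymphocyte proliferation, had 50.4 and 47.6 in torpor, 215 and 113 at 2 h, 163 and 150 at 26 h, and 121 and 101 in summer active spleens. Its difference from torpor was 1.65 at both times (SE 0.30, limma adjusted p = 0.142 at 2 h and 0.271 at 26 h). DUSP7, a cytoplasmic ERK phosphatase, differed from torpor by 0.99 at 2 h and 1.04 at 26 h, KLF7 by 1.14 at 2 h and KLF9, a glucocorticoid target, by 2.06 at 26 h. In these paralogs all 4 libraries taken after capture lay above both torpor libraries. KLF7 had 1.79 and 2.58 in torpor and 4.88 and 5.13 at 26 h. KLF9 had 4.78 and 3.24 in torpor and 9.67 and 28.5 at 2 h.

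Of the FOS/JUN partners, 5 of 10 lay above 0 at 2 h and 8 of 10 at 26 h. Both arousal libraries lay above both torpor libraries for 5 of the 10 (beside 31.9% of all genes). They lay below for 3, BATF, BATF2 and ATF4 (beside 22.2%), so the list was split at 2 h. ATF4 had 315 and 342 in torpor and 214 and 259 at 2 h, and BATF2 had 1.12 and 1.66 in torpor and 0.210 and 0.423 at 2 h. FOSL2, a FOS paralog, had 7.09 and 8.60 in torpor, 20.5 and 19.6 at 2 h, 12.1 and 22.3 at 26 h, and 6.95 and 10.7 in summer active spleens. FOSL2 was thus the FOS gene with the widest gap to torpor, with a difference of 1.26 at 2 h (SE 0.33, limma adjusted p = 0.164) and 0.99 at 26 h (SE 0.33, limma adjusted p = 0.316). The small MAF genes MAFK and MAFG, paralogs of MAFF, differed from torpor by 0.86 and 0.77 at 2 h and by 1.02 and 0.59 at 26 h.

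In the cyclic AMP and CREB pathway, 13 of 15 listed genes lay above 0 at both times (medians 0.40 and 0.21). CREB1, the cyclic AMP response factor itself, had 5.83 and 5.27 in torpor, 16.3 and 12.1 at 2 h, 12.3 and 16.0 at 26 h, and 9.53 and 10.6 in summer active spleens. Its difference from torpor was 1.20 at both times (SE 0.24, limma adjusted p = 0.142 at 2 h and 0.271 at 26 h). The acetyltransferase EP300 and the kinase subunit PRKACB differed by 1.45 and 1.00 at 2 h, and the phosphodiesterases PDE4B and PDE4D by 1.05 and 0.92 at 26 h. Of 21 tested genes of the ERK cascade, 16 lay above 0 at 2 h (median 0.36) and 14 at 26 h (median 0.08, that of all genes). MRTFB, a co-activator of serum response factor, differed from torpor by 1.04 at 2 h, and HRAS by -0.63 at 2 h and -0.51 at 26 h. Of 12 stress kinase genes, 10 lay above 0 at 2 h and 7 at 26 h, with MAP3K5 at 1.27 and 1.06, MAP3K1 at 0.98 and 0.81, MAP3K7 at 0.67 at 2 h and MAP2K7 at 0.67 at 26 h.

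Of 37 other rapidly induced genes, 30 lay above 0 at 2 h (median 0.47) and 32 at 26 h (median 0.64). HES1, a Notch target, had 14.8 and 9.14 in torpor, 36.7 and 40.1 at 2 h, 58.4 and 40.9 at 26 h, and 30.5 and 20.7 in summer active spleens. HES1 differed from torpor by 1.64 at 2 h and 1.98 at 26 h (limma adjusted p = 0.142 and 0.271). SPRED1, an inhibitor of the ERK pathway, and the clock gene PER1 differed by 1.02 and 1.01 at 2 h, and TIPARP and ID3 by 1.07 and 1.12 at 26 h. In arousal against summer active, 5 of the 120 genes tested on these lists passed (4.17%), beside 5.52% of all genes, so calls were no more frequent on the lists. KLF7, SIK2 and SPRED1 rose by 1.33, 1.87 and 1.20 in arousal (limma adjusted p = 0.0432, 0.0499 and 0.0473), and MAP2K2 fell by 0.79 (limma adjusted p = 0.0486). Each of these calls was lost without any 1 of the 8 libraries (limma adjusted p up to 0.192), except that SIK2 passed without summer active 1 (0.0404). With each column set to a total of 1000000, the difference of MAP2K2 was -0.02.

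**Figure D4:**
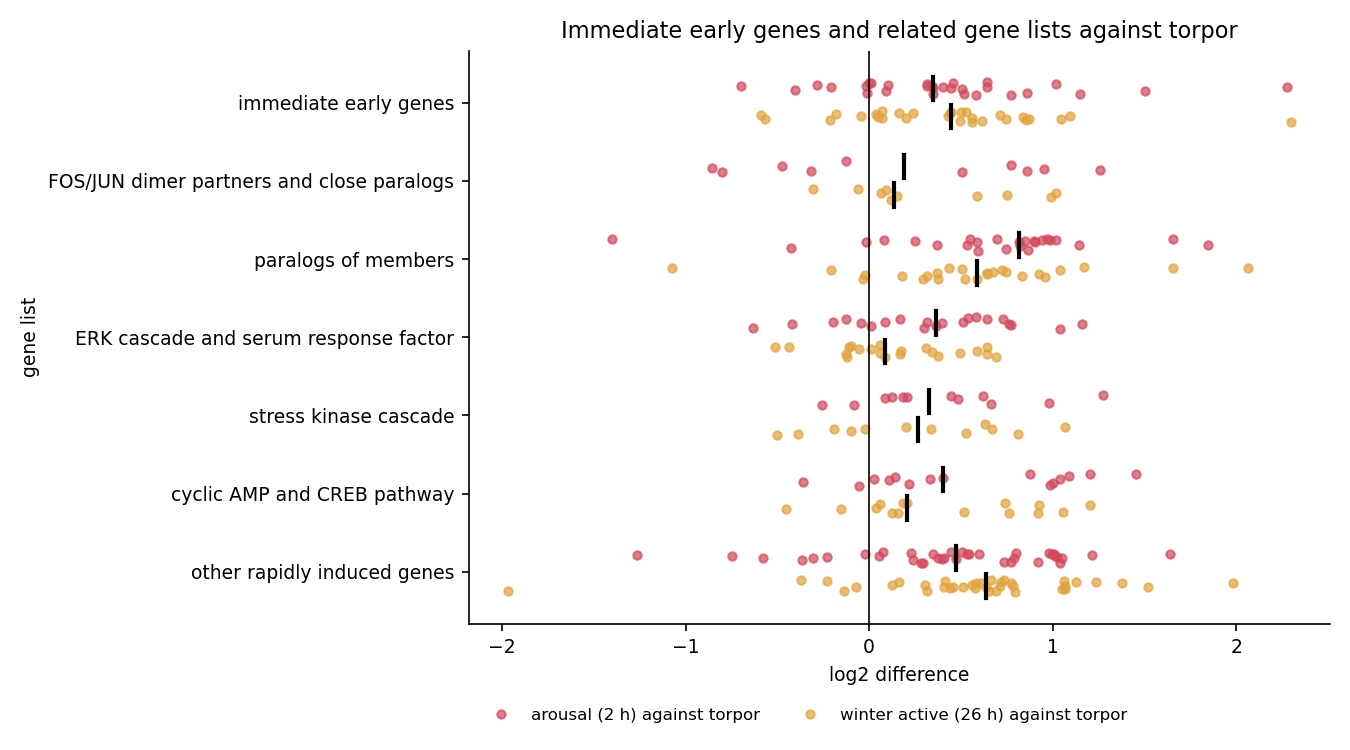
Log2 difference from torpor of each gene tested (points) in the immediate early genes and 6 related lists, at 2 h (red, upper row of each list) and 26 h (orange, lower row), with the list median as a black line. List medians run from 0.08 for the ERK cascade at 26 h to 0.82 for paralogs at 2 h, while the medians of all genes are 0.11 at 2 h and 0.08 at 26 h.

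Cell type markers moved between the same libraries. At 2 h, all 9 tested hepatocyte markers lay above torpor (summed levels of 1095 and 18728 in arousal against 814 and 85.6 in torpor), and both arousal values exceeded both torpor values for 6. All 9 erythroid markers lay below (6.65 and 8.76 in arousal against 155 and 93.8 in torpor, with HBM at 0 in arousal 1), as did all 9 neutrophil markers (1022 and 3660 in arousal against 12677 and 1597 in torpor) and all 8 platelet markers (36.8 and 29.9 in arousal against 155 and 66.1 in torpor). Of 9 NK and cytotoxic markers, 8 lay below torpor at 2 h, 7 of them without overlap (summed 109 and 77.7 in arousal against 330 and 205 in torpor). Of 11 endothelial markers, 9 lay above torpor at 2 h (586 and 554 in arousal against 493 and 440 in torpor) and 9 at 26 h (731 and 582 in winter active). At 26 h all 7 pancreas markers lay below torpor without overlap (31.1 and 124 in winter active against 1509 and 369 in torpor), and all 9 hepatocyte markers lay below (75.3 and 49.1 in winter active against 814 and 85.6 in torpor), 8 without overlap. B-cell markers lay above torpor for 6 of 10 at 2 h and for 9 of 10 at 26 h (medians 0.10 and 0.44). T-cell markers (6 of 10 in the table) did so for 3 at 2 h and 5 at 26 h (medians 0.04 and 0.52). All 10 B-cell and all 6 T-cell markers were higher at 26 h than at 2 h (medians 0.49 and 0.62). The part of all these marker shifts in the differences of the immediate early genes was not tested.

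The 2 arousal libraries differed in the members by a median of 0.56 on the log2 scale in size, against 0.44 between the torpor, 0.27 between the winter active and 0.37 between the summer active libraries. Arousal 1 was the higher of the pair for 21 of 29 members, with a median gap of 0.44, against 50.6% and 0.01 over all genes. The largest gap was that of ATF3, 1.40 on the log2 scale. Of the 31 members, 11 had their highest value of all libraries in arousal 1, which held the highest value for 20.2% of all genes, and 2 had theirs in arousal 2 (14.8% of all genes). The lowest value stood in torpor 2 for 10 members (13% of all genes). By state means, 5 members were highest in torpor, 13 in arousal, 8 in winter active and 5 in summer active, beside 19.4%, 35.3%, 16% and 29.3% of all genes. The lowest mean was that of torpor for 12 members and of summer active for 15, beside 31.2% and 29.5% of all genes.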

How the data were processed

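Whole-spleen RNA was sequenced in 8 libraries. The deposited signal is 1 rescaled TPM value per gene and library, with column totals from 745098 to 1331820. Per the submitters' processing notes, kallisto (0.46.2) and sleuth (0.30.0) were used, and what they were run against, how genes were summed and how columns were rescaled is not stated. The planned unit was TPM. All 19652 IDs and symbols matched the annotation of mRhiFer1_v1.p, used for names. Sequences were not used here.

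Genes reaching an 8-library mean of 1 (13542) were fitted as log2(signal + 1) by limma 3.58.1 (R 4.3.3), with state as the factor, all libraries together and trended moderation (4 residual, 3.29 prior degrees of freedom). Calls needed a Benjamini-Hochberg adjusted p under 0.05. A moderated F test covered any difference among states. The fit was also run on simulated data with planted changes, whose recovery is not reported here.

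Members and lists were chosen with earlier results of these data known, so lists carry no test. Every library's value is given for the named subfamilies and for members with an unadjusted p under 0.05 against torpor, and up to 3 genes per related list are named per comparison with torpor, by p, besides those past the threshold; 1 gene that met this rule is not reported here. The fit was repeated with pseudocount 0.1, unfiltered, at a minimum mean of 5, after median-of-ratios, quantile or total (1000000) scaling, with robust moderation, with a replicate block, on 2 states only, and without each library.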

Additional observations from a re-analysis of the deposited data

How the results depend on the processing

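With 2 animals per state and unknown depth, single libraries and the scaling weighed on the counts. Setting each column to 1000000 called 445 genes at 2 h against torpor (2 members, BTG2 and MAFF, limma adjusted p = 0.0456 each), 6099 in arousal against summer active (13 members), 779 in winter active against summer active (7 members) and 2977 for any difference (10 members). Member medians then stood at 0.72 for arousal and 0.62 for winter active against torpor, -0.14 for winter active against arousal, and 0.39, 1.07 and 0.97 for torpor, arousal and winter active against summer active. All-gene medians moved along, to 0.45, 0.24, -0.22, 0.29, 0.76 and 0.55. With no filter, 4 genes were called in winter active against torpor, 1 in winter active against arousal, 284 in arousal against summer active (0 members) and 40 for any difference. With 2 states alone, 11, 27 (0 members) and 32 genes were called in torpor, arousal and winter active against summer active.

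Without 1 library, 0 to 2 genes were called in arousal against torpor and 0 to 1 in winter active against arousal. Against summer active the ranges were 9 to 312 genes (0 to 1 members) for torpor, 25 to 677 (0 to 1 members) for arousal and 15 to 374 for winter active, and 12 to 183 for any difference. Member medians ranged over 0.16 to 0.59 (arousal against torpor), -0.14 to 0.29 (winter active against arousal), and -0.16 to 0.14, 0.14 to 0.43 and 0.29 to 0.54 (torpor, arousal and winter active against summer active). The replicate block gave 5 members in arousal against summer active, adding DUSP1 and KLF6, and 46 genes for any difference. Libraries sharing a number were different animals, so the number pairs no animal. Their deviations correlated from -0.191 to 0.322. Whether they shared a batch cannot be told from this, since the labels name no batch. Of the repeats of the 82 single-gene differences (members and related genes), 1267 kept direction and side of the threshold, 86 lost a call, 30 gained one and none reversed. Only 3 members and 5 related genes had passed in the main fit, all in arousal against summer active. Most of the 1267 repeats thus only stayed short of the threshold, and the 86 lost calls all fell on those few calls. The cause of the shifts between settings was not tested.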
